A study of Mus musculus with 8 samples.

Results

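Antigen presentation and interferon-response genes were followed in pancreatic islets of C57BL/6 mice at 5 weeks of age. The set holds 37 genes, listed by name, out of 55414 gene identifiers in the count tables and 20509 genes tested. Of these 37 genes, 10 serve the MHC class I pathway, 5 the MHC class II pathway and 22 are interferon-induced or transmit the interferon signal. RNA sequencing gave 8 libraries in 2 groups of 4. The TG group is Ins2 cre(+/-) ATF4 TG(+/-), the WT group is Ins2 cre(-/-) ATF4 TG(+/-), so all mice carried the ATF4 transgene and only the TG group carried the Cre recombinase that the insulin 2 promoter directs to beta cells. No group with Cre and without the transgene was analysed here, so an effect of Cre itself and one of ATF4 cannot be told apart. The study, by its title, concerns ATF4 and beta-cell dysfunction under endoplasmic reticulum stress, and the comparison asks how these immune transcripts differ in islets with the Cre driver. The labels do not say that samples within a group are separate animals, so p-values measure the spread between these samples, which may be technical.

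MHC class I molecules are carried by nearly all nucleated cells and present peptides from inside the cell to cytotoxic T cells. The peptides are cut by the immunoproteasome, pumped into the endoplasmic reticulum by the TAP transporter and loaded onto a heavy chain paired with beta-2-microglobulin. MHC class II molecules present peptides from endocytosed protein to helper T cells and are mostly found on macrophages, dendritic cells and B cells. Interferons induce both pathways, and they also induce antiviral effectors through STAT and IRF transcription factors that bind an interferon-stimulated response element (ISRE) or a gamma-activated site (GAS) near the start of a gene. In islets, raised class I is a known feature of autoimmune diabetes.

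The libraries held 16521087 to 22499999 counts assigned to genes, and 31088 to 39510 genes had at least 1 count. Counts under Atf4 were lower in the libraries labelled TG (260 ± 19.6 CPM, counts scaled to library size, SD, n = 4) than in those labelled WT (351 ± 21.1 CPM, SD, n = 4). The sources used here do not say whether transcripts of the transgene are counted under Atf4, so these counts do not check the labels, and TG and WT mean libraries as labelled throughout. Beta-cell transcripts were abundant in every library, as the label islets requires. The summed level of 10 beta-cell markers was 49800 to 63900 CPM in TG and 103000 to 123000 CPM in WT, and 10 of 10 were lower in TG. In bulk RNA, fewer cells of a type and less RNA per cell cannot be told apart.

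Transcripts of other cell types differed between the groups beside the genes described here, and their counts stand against 12.1% of all genes called higher and 8.06% called lower. All 15 of 15 endothelial markers were higher in TG, with summed levels of 1450 to 1490 CPM in TG and 594 to 1040 CPM in WT. Mural, stellate and fibroblast markers were higher for 10 of 14, with 3440 to 6610 CPM in TG and 868 to 2850 CPM in WT. WT 3 held the most of both among the WT libraries. Macrophage markers were higher for 9 of 14, with 225 to 512 CPM in TG and 125 to 196 CPM in WT, and TG 2 (512 CPM) and TG 3 (428 CPM) stood above the other TG libraries. Much of this gap lay in Lyz2, at 273 and 188 CPM in TG 2 and TG 3 and at 56.2 and 37 CPM in TG 1 and TG 4. Mrc1, Fcgr1, Tyrobp and Aif1 were highest in TG 1 and Cx3cr1 in TG 4, the other macrophage markers in TG 2 or TG 3. Markers of peritoneal-type macrophages were higher for 4 of 7 tested (42.6 to 83.6 CPM in TG, 23.7 to 30.7 CPM in WT). Of this list, Cd5l was at 14.5 and 11.4 CPM in TG 2 and TG 3, against 1.23 and 0.227 CPM in TG 1 and TG 4. Alox15, Timd4, Vsig4 and Prg4 were likewise higher in TG 2 and TG 3 than in TG 1 and TG 4. Gata6 (13.2 to 15.2 CPM), Icam2 (15.7 to 18.2 CPM) and Garnl3 (9.26 to 12.5 CPM) varied less among TG libraries. They were the most abundant of the list in TG 1 and TG 4. Dendritic cell markers were higher for 2 of 7 (34.8 to 36.8 CPM in TG, 18 to 30.4 CPM in WT) and duct markers for 4 of 6 (749 to 1010 CPM in TG, 368 to 421 CPM in WT). Markers of B cells were higher for 2 of 6 (7.95 to 15.8 CPM in TG, 4.32 to 11.3 CPM in WT). Cd79a of that list went the other way, with means of 1.14 CPM in TG and 2.22 CPM in WT. It did not pass the edgeR test (log2 fold change −0.96, SE 0.45, adjusted p = 0.157), and the other 5 had positive fold changes. Markers of T and NK cells were higher for 2 of 7 (4.32 to 7.73 CPM in TG, 1.83 to 4.71 CPM in WT). Of 10 acinar markers edgeR and DESeq2 called 0, and 0 had an unadjusted p under 0.05, with 6270 to 40800 CPM in TG, where TG 1 was the highest, and 1250 to 12300 CPM in WT. Of 103 marker genes 0 were at a count of 0 in all 8 libraries and 8 were at 0 in some library, among them Cd3e, Cd8a, Nkg7 and Gzmb of T and NK cells, Ccr7 of dendritic cells, and Alox15 and Vsig4 of peritoneal-type macrophages.

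The starts of the genes were read for the elements through which interferon acts. RefSeq windows of 300 bases, from 250 before to 50 after a start on build GRCm38.p6, were at hand for 30 of the 37 genes, without H2-Ab1, Ciita, Mx1, Usp18, Tap2, Cd74 and Nlrc5. The core of the ISRE was searched as the letters GAAA repeated after any 2 bases, or TTTC likewise for the other strand, and TTCNNNGAA, which reads the same on both strands, was searched for the GAS. The 30 genes have 36 windows, since a gene may have more than 1 start. The ISRE core lay in 13 of these 36 windows (36.1%), those of 13 genes, against 3.44% of all 32851 windows of the same length. Of these 13 genes, 12 are interferon-induced (of 20 with a window) and 1 is in class I (B2m, of 8), while 0 of 2 class II genes had it. The GAS core lay in 8 of the 36 windows (22.2%), also of 8 genes, against 8.3% of all windows. The genes were listed for their part in antigen presentation and the interferon response. These shares therefore describe the list and are not a result of these libraries. Each of the windows printed here holds an ISRE core. Ifitm3 (chr7:141010695-141010994, minus strand), Gbp2 (chr3:142620413-142620712, plus strand), Isg15 (chr4:156200769-156201068, minus strand) and B2m (chr2:122147437-122147736, plus strand) are shown because they were among the genes with the largest changes of their class. Rsad2 (chr12:26456403-26456702, minus strand) is shown because it holds the core and did not pass the test. Sequences run 5′ to 3′ on the strand of the gene, and capitals mark ISRE and GAS cores.
Ifitm3: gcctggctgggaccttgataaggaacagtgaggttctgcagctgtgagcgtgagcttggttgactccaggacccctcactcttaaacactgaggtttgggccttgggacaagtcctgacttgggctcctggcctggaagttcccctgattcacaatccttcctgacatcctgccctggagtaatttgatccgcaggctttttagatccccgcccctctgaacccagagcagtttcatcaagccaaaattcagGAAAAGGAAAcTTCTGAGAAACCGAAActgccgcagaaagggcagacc
Gbp2: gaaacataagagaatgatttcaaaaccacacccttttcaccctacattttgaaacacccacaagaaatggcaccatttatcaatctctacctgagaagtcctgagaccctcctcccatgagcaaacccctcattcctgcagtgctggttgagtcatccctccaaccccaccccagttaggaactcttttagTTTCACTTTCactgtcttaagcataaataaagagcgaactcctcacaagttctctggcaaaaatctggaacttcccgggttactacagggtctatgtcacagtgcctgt
Isg15: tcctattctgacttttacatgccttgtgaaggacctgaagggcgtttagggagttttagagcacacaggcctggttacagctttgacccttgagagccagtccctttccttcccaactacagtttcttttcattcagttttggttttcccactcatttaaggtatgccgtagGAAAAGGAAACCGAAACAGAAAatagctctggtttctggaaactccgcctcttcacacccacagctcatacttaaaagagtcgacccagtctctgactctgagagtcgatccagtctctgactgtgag
B2m: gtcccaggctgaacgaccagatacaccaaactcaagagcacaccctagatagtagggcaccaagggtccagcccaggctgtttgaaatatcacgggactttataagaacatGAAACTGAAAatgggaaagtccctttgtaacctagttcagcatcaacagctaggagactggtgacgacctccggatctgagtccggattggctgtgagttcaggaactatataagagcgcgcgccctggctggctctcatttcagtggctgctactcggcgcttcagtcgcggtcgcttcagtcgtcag
Rsad2: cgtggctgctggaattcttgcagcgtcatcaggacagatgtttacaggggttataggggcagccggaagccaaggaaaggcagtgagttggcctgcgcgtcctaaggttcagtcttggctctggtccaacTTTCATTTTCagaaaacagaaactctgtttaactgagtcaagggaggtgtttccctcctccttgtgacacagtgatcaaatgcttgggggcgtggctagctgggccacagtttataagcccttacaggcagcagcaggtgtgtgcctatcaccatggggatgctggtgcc
In Ifitm3 the cores begin at 2 and 19 past the start, with a GAS core at 13 that overlaps the core at 19. Isg15 has 3 overlapping cores that begin at −78, −72 and −66, where negative positions lie before the start. The core begins at −59 in Gbp2, at −139 in B2m and at −120 in Rsad2. A match to these letters is a description of the sequence and does not show that a factor is bound there. Only exact letters were searched, so a window without a match may still hold a variant of the element. The windows of H2-D1 and H2-K1 hold a near match to the ISRE core that was not counted.

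Of the 37 genes, all of which passed the filter on low counts, 20 were higher in TG, 0 were lower and 17 did not pass the test. The threshold was an adjusted p of 0.05 in the quasi-likelihood test of edgeR, with Benjamini-Hochberg adjustment over all 20509 genes. Over all genes tested 12.1% were called higher and 8.06% lower. The count of 20 was 13 without TG 3 and 13 without WT 2, 15 to 18 without any 1 of TG 1, TG 2, TG 4, WT 1 or WT 4, and 23 without WT 3. Calls over all genes, in either direction, numbered 4129 with every library, 2954 without TG 3, 2864 without WT 2 and 4114 without WT 3. A lower count in such a fit is therefore not particular to these genes, and the counts by class below come from the same fits. The median log2 fold change of the 37 genes, TG over WT, was 0.49, and over all genes tested it was −0.00186. In 16 of the 37 genes every TG library lay above every WT library, against 12.6% of all genes tested, and in 1, Tapbp, every TG library lay below every WT library. DESeq2 called the same 20 genes higher and 0 lower, and at an unadjusted p under 0.05 1 gene, Tapbp, had a negative fold change in edgeR. Among the WT libraries WT 3 was the highest for 25 of the 37 genes and WT 4 the lowest for 20, and TG 4 was the lowest TG library for 20.

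**Figure D1:**
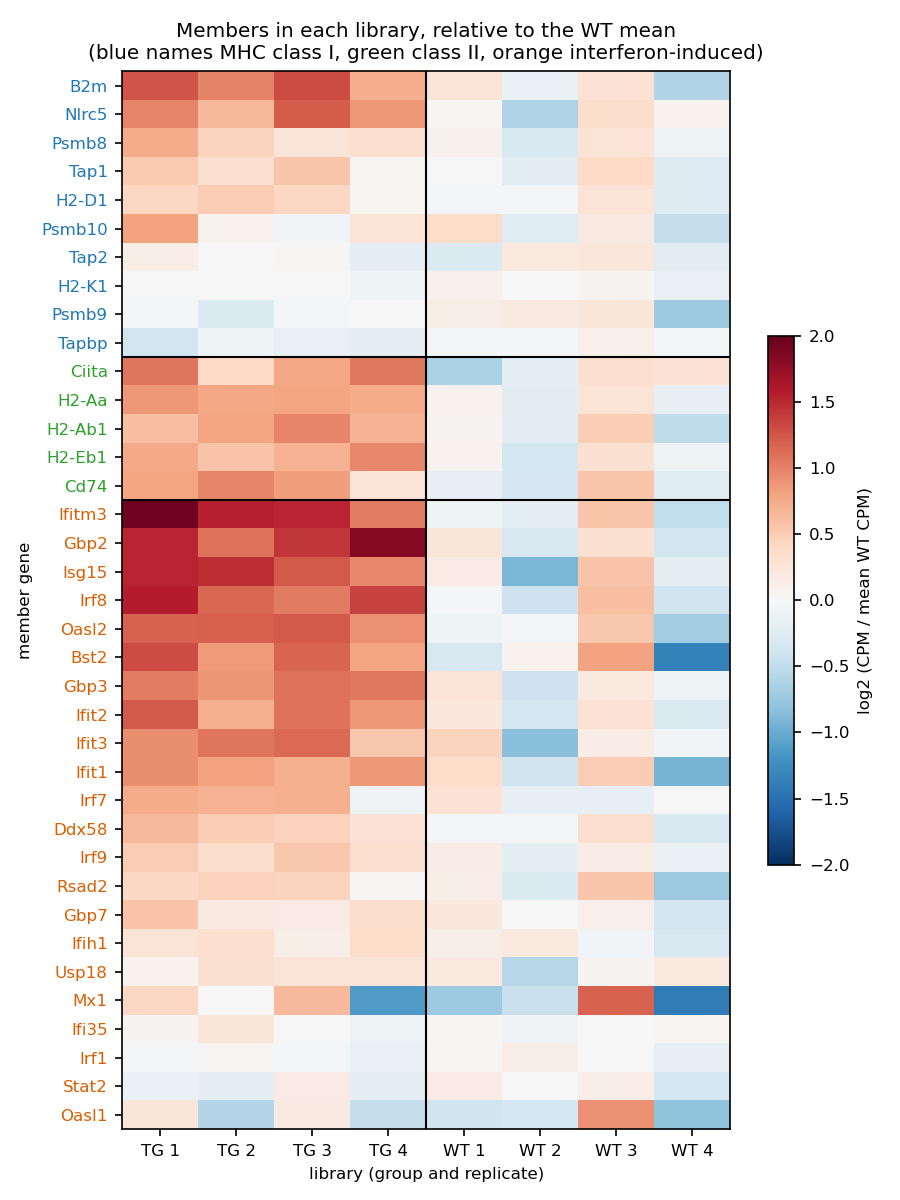
Level of each of the 37 genes in each library, as the log2 of its CPM over its mean CPM in WT, with TG libraries left of WT libraries and genes grouped by class. TG columns lie above the WT mean for all 5 class II genes and the called interferon-induced genes, and WT 3 was the highest WT library for 25 of the 37 genes.

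Class I genes differed among themselves. B2m, the light chain of every class I molecule, and Nlrc5, the transactivator of class I genes, were 2.13-fold and 1.92-fold higher in TG, while the heavy chain H2-K1, the peptide transporter and the immunoproteasome subunits did not pass the test. Of 10 class I genes, with a median log2 fold change of 0.33, 0 were lower and 3 higher (B2m, Nlrc5 and H2-D1), against 12.1% of all genes called higher. This count was 1 without TG 3, 2 without any 1 of TG 1, TG 2, WT 1, WT 2 or WT 4, and 5 without WT 3. B2m had 91.3, 75.8, 94.0 and 63.3 CPM in TG 1 to 4, against 45.8, 34.6, 46.8 and 25.1 CPM in WT 1 to 4. Every TG library was above every WT library, with means of 81.1 ± 14.3 CPM in TG and 38.1 ± 10.3 CPM in WT (SD, n = 4 each), 2.13-fold higher in TG (log2 fold change 1.09, SE 0.20, adjusted p = 0.00408). Nlrc5 had 5.90, 4.78, 6.95 and 5.51 CPM in TG and 3.08, 1.97, 3.83 and 3.16 CPM in WT. The groups did not overlap (log2 fold change 0.94, SE 0.24, adjusted p = 0.013), and without TG 3 the call was lost (0.81, adjusted p = 0.0634).

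The classical heavy chains H2-K1 and H2-D1 were the most abundant of the 37 genes, also per length of exon. H2-K1 had 302, 304, 298 and 283 CPM in TG and 318, 300, 313 and 271 CPM in WT. The groups overlapped over most of their range (log2 fold change −0.02, SE 0.081, adjusted p = 0.92). H2-D1 had 301, 321, 300 and 232 CPM in TG and 222, 220, 272 and 189 CPM in WT. TG 4 lay below WT 3, and the call was close to the threshold (log2 fold change 0.36, SE 0.12, adjusted p = 0.0471). Significance was lost without any 1 of TG 1, TG 2, TG 3, WT 1, WT 2 or WT 4, with log2 fold changes of 0.27 to 0.34 and adjusted p between 0.084 and 0.145. Heavy-chain transcripts resemble each other, so their counts are uncertain. In the GENCODE annotation 12.8% of the 50-base windows of H2-D1 and 9.6% of those of H2-K1 also occur in other genes, among them H2-Q7. B2m shares 0.0% of its windows. Set against H2-K1 in the same library, B2m stood at 0.273 ± 0.0436 in TG and 0.125 ± 0.0266 in WT (ratio of CPM, SD, n = 4 each), a pairing chosen after the values were seen. Per kilobase of exon, H2-D1 was at 112 CPM in TG and 87.6 CPM in WT, H2-K1 at 101 CPM in TG and 102 CPM in WT, and B2m at 94.3 CPM in TG and 44.3 CPM in WT.

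The remaining class I genes, which supply and load peptide, had log2 fold changes between −0.19 and 0.45 and adjusted p of 0.0727 or more. Tapbp (tapasin, which bridges the transporter and the heavy chain) averaged 82.2 ± 7.07 CPM in TG and 94.2 ± 4.46 CPM in WT (SD, n = 4 each). The groups did not overlap, yet the difference missed the threshold (log2 fold change −0.19, SE 0.087, adjusted p = 0.137). In the annotation 24.9% of its exons lie under exons of the opposite strand, and the sources used here do not say whether reads were counted by strand. The transporter subunits Tap1 and Tap2 averaged 15.3 and 18.1 CPM in TG and 11.8 and 18.2 CPM in WT. Tap1 measured 0.37 (SE 0.17, adjusted p = 0.157) and Tap2 −0.00391 (SE 0.14, adjusted p = 0.99) on the log2 scale. The immunoproteasome subunits Psmb8, Psmb9 and Psmb10 measured 0.45 (SE 0.17), −0.09 (SE 0.22) and 0.31 (SE 0.22). Tap1 and Psmb9, whose RefSeq windows overlap on opposite strands of chromosome 17, both missed the threshold. Without WT 3, the WT library with the most vascular and stromal transcripts, Tap1 (0.52, adjusted p = 0.0364) and Psmb8 (0.55, adjusted p = 0.0395) passed it.

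**Figure D2:**
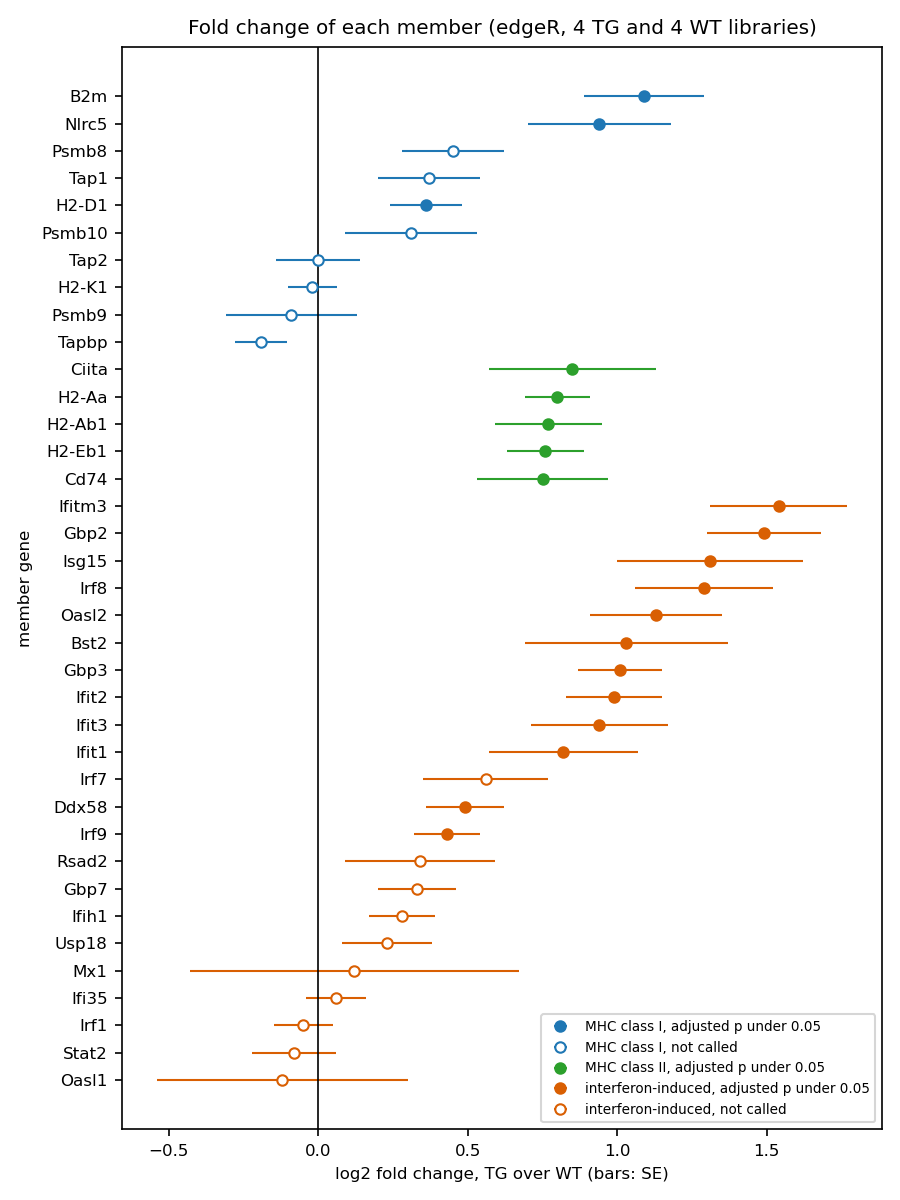
Log2 fold change of the 37 genes, TG over WT, with bars of 1 SE derived from the edgeR test, grouped by class. Filled points passed an adjusted p of 0.05. All 5 class II genes lie between 0.75 and 0.85, class I genes spread from −0.19 to 1.09 and interferon-induced genes from −0.12 to 1.54.

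All 5 class II genes were higher in TG and by nearly the same amount, 1.68-fold to 1.80-fold. Their log2 fold changes lay between 0.75 and 0.85 with a median of 0.77, and 4 of the 5 had no overlap between groups. Over all genes tested 12.1% were called higher, and in 12.6% every TG library lay above every WT library. The count of 5 was 3 without any 1 of TG 1, TG 3, WT 1 or WT 2, and 4 without TG 2, TG 4 or WT 4. H2-Aa, the alpha chain of I-A, had 58.5, 55.1, 55.5 and 53.9 CPM in TG, against 33.6, 27.6, 38.6 and 28.6 CPM in WT. The TG libraries were close together, with an SD of 1.94 CPM, and the difference had the lowest adjusted p of the class (0.80, SE 0.11, adjusted p = 0.000155). H2-Ab1, the beta chain of I-A, had 30.4, 34.4, 39.2 and 32.4 CPM in TG and 20.8, 17.1, 28.1 and 14.0 CPM in WT. The lowest TG library stood just above WT 3 (0.77, SE 0.18, adjusted p = 0.00819). H2-Eb1, a gene for a further class II beta chain, had 72.7, 63.7, 69.2 and 83.8 CPM in TG and 45.2, 33.7, 52.8 and 39.9 CPM in WT. The groups were apart by more than 10 CPM (0.76, SE 0.13, adjusted p = 0.000846).

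Cd74, the invariant chain that guides class II molecules to the endosome, had 70.0, 79.1, 72.3 and 48.6 CPM in TG and 36.1, 32, 59.1 and 34.0 CPM in WT. TG 4 lay below WT 3, so the groups overlapped (0.75, SE 0.22, adjusted p = 0.0399). Ciita, the transactivator that switches on class II genes, had 4.99, 3.14, 4.09 and 4.94 CPM in TG and 1.54, 2.07, 3.0 and 2.92 CPM in WT. TG 2 was close to WT 3 and WT 4 (0.85, SE 0.28, adjusted p = 0.0435). The call of Cd74 was lost without any 1 of TG 1, TG 2, TG 3, WT 1, WT 2 or WT 4 (0.64 to 0.74, adjusted p between 0.0846 and 0.111). That of Ciita was lost without any 1 of TG 1, TG 3, TG 4, WT 1 or WT 2 (0.68 to 0.84, adjusted p between 0.096 and 0.121). H2-Aa and H2-Eb1 were called in all 15 settings without a covariate. WT 3 was the highest WT library for 5 of 5 class II genes. It was also the highest WT library in the summed endothelial, mural with stellate and fibroblast, dendritic, T and NK, B cell and both macrophage marker lists. Its dendritic cell markers summed to 30.4 CPM, against 18 to 21.4 CPM in the other WT libraries. Zbtb46 of that list was at 17.2 CPM in WT 3, against 9.86 to 10.5 CPM in the others. Among the WT libraries Flt3 and Batf3 were highest in WT 4, Xcr1 and Siglech in WT 1, and the other dendritic cell markers in WT 3.

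**Figure D3:**
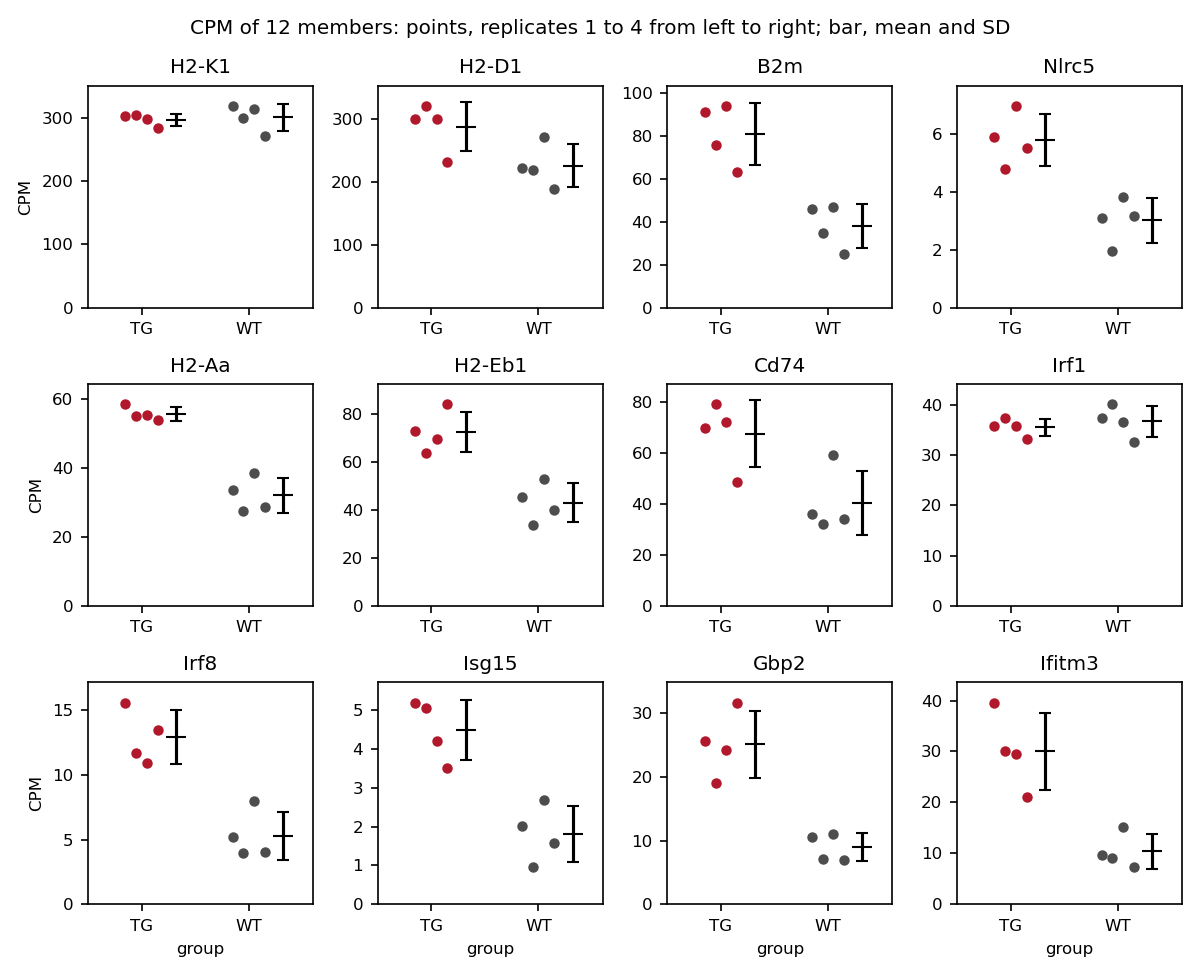
CPM of selected genes of the 3 classes, TG left of WT, with a point for each of the 4 libraries of a group and a bar for the mean and SD. B2m, the class II genes, Irf8, Isg15, Gbp2 and Ifitm3 stand higher in TG, while H2-K1 and Irf1 lie at the same level in both groups.

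Interferon-induced genes were higher in TG for 12 of 22 and lower for 0, with a median log2 fold change of 0.52. The count of 12 was 8 without WT 2, 9 without TG 3, 13 without WT 3, and 10 or 11 without any other 1 library. Ifitm3 and Gbp2 changed most, close to 3-fold, while Irf1, Stat2, Ifi35, Mx1 and Oasl1 had log2 fold changes between −0.12 and 0.12 and did not pass the test. Of the 12, 10 had no overlap between groups. Among all genes tested 12.1% were called higher and 12.6% had every TG library above every WT library. Ifitm3, a membrane protein that blocks the entry of enveloped viruses, had 39.6, 30.1, 29.5 and 21 CPM in TG, against 9.73, 9.05, 15.2 and 7.36 CPM in WT. The means were 30.0 ± 7.64 CPM in TG and 10.3 ± 3.38 CPM in WT (SD, n = 4 each), 2.91-fold higher in TG (1.54, SE 0.23, adjusted p = 0.000844). In this gene the lowest TG library still exceeded the highest WT library. In the annotation 10% of its 50-base windows also occur in other genes. Bst2 (tetherin, which holds budding virions at the cell surface) had 11.1, 8.10, 10.1 and 7.73 CPM in TG and 3.61, 4.73, 7.84 and 1.76 CPM in WT. TG 4 lay just below WT 3 (1.03, SE 0.34, adjusted p = 0.0495). Leaving out any library but WT 3 ended the call of Bst2 (0.77 to 1.09, adjusted p between 0.0563 and 0.139).

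Transcripts of the guanylate-binding proteins, GTPases that attack the vacuoles of intracellular pathogens, differed among themselves. Gbp2 had 25.6, 19.0, 24.2 and 31.7 CPM in TG and 10.6, 7.16, 11.1 and 6.94 CPM in WT. It was 2.81-fold higher in TG, with the lowest adjusted p of the 37 genes (1.49, SE 0.19, adjusted p = 7.82e-05). Gbp3 had 32, 29.1, 33.6 and 32.8 CPM in TG and 18.8, 11.8, 18 and 14.7 CPM in WT. All TG libraries lay more than 10 CPM above the WT libraries (1.01, SE 0.14, adjusted p = 0.000156). Gbp7 averaged 40.5 ± 5.62 CPM in TG and 32.3 ± 5.42 CPM in WT and missed the threshold (0.33, SE 0.13, adjusted p = 0.0987). The ratio of Gbp2 to Gbp7 within a library was 0.622 ± 0.12 in TG and 0.276 ± 0.0399 in WT (SD, n = 4 each), again a pairing chosen after the values were seen.

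Transcripts of Ifit1, Ifit2 and Ifit3, whose proteins bind foreign RNA and stall its translation, were all called higher in TG. Ifit1 had 16.2, 14.7, 13.8 and 15.5 CPM in TG and 10.9, 6.43, 12 and 4.44 CPM in WT. The WT libraries spread widely, from 4.44 to 12 CPM (0.82, SE 0.25, adjusted p = 0.0349), and the call was lost without any 1 of TG 1, TG 2, TG 3, TG 4 or WT 2 (0.70 to 0.84, adjusted p between 0.0622 and 0.109). Ifit2 had 33.4, 23.4, 30.4 and 26.1 CPM in TG and 16.6, 11.2, 17.5 and 11.7 CPM in WT. It was close to 2-fold higher in TG (1.99-fold, log2 fold change 0.99, SE 0.16, adjusted p = 0.00067). Ifit3 had 14.9, 16.4, 17.1 and 11.4 CPM in TG and 10.6, 4.36, 8.68 and 7.54 CPM in WT. TG 4 stood just above WT 1 (0.94, SE 0.23, adjusted p = 0.0098). Of its 50-base windows, 51.2% also occur in its copy Ifit3b, so the count of Ifit3 is uncertain.

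Isg15, a ubiquitin-like modifier, had 5.20, 5.05, 4.22 and 3.52 CPM in TG and 2.02, 0.965, 2.68 and 1.58 CPM in WT. It was 2.48-fold higher in TG, at a low level in both groups (1.31, SE 0.31, adjusted p = 0.00718). Oasl2, a relative of the oligoadenylate synthetases, had 12.9, 13.1, 13.3 and 10.7 CPM in TG and 5.35, 5.56, 8.31 and 3.53 CPM in WT. The groups did not overlap (1.13, SE 0.22, adjusted p = 0.0019). The related gene Oasl1 averaged 1.47 ± 0.43 CPM in TG and 1.59 ± 0.952 CPM in WT and did not pass the test (−0.12, SE 0.42, adjusted p = 0.886). The direction of Oasl1 turned without TG 2 (0.00946) and without WT 3 (0.382).

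Of the sensors of viral RNA, Ddx58, which encodes RIG-I, had 41.6, 37.7, 36.4 and 32.3 CPM in TG and 26.0, 25.7, 32.8 and 21.4 CPM in WT. TG 4 lay just below WT 3 (0.49, SE 0.13, adjusted p = 0.0154). The call of Ddx58 was lost without WT 2 or WT 4 (0.39 to 0.46, adjusted p between 0.0508 and 0.0529). Ifih1, which encodes MDA5 and had the highest mean CPM of the interferon-induced genes, had 58.9, 61.7, 53.4 and 63.2 CPM in TG and 52.8, 56.1, 47.2 and 39.2 CPM in WT. TG 3 lay below WT 2, and the difference missed the threshold (0.28, SE 0.11, adjusted p = 0.0913).

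Transcription factors of the interferon response went apart. Irf8, a factor of myeloid and B cells, had 15.6, 11.7, 10.9 and 13.5 CPM in TG and 5.16, 3.95, 7.98 and 4.02 CPM in WT. It was 2.45-fold higher in TG, with no overlap (1.29, SE 0.23, adjusted p = 0.000931). Irf9, the DNA-binding part of the complex formed after type I interferon, had 36.1, 32.3, 36.9 and 31.9 CPM in TG and 28.2, 22.1, 28.1 and 23.2 CPM in WT. The rise of Irf9 was the smallest among the called interferon-induced genes (0.43, SE 0.11, adjusted p = 0.0144), and its call was lost without TG 3 or WT 2 (0.36 in both, adjusted p between 0.0661 and 0.0746). Stat2, its partner, averaged 21.4 ± 2.64 CPM in TG and 22.6 ± 3.45 CPM in WT (−0.08, SE 0.14, adjusted p = 0.749). Irf1, a factor that interferon-gamma induces early, averaged 35.5 ± 1.70 CPM in TG and 36.7 ± 3.07 CPM in WT (−0.05, SE 0.098, adjusted p = 0.798). Irf7, which amplifies type I interferon, averaged 8.74 ± 2.04 CPM in TG and 5.94 ± 0.901 CPM in WT and missed the threshold (0.56, SE 0.21, adjusted p = 0.0736), though it passed without TG 4, its lowest TG library (0.68, adjusted p = 0.0195).

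The other interferon-induced genes did not pass the test. Rsad2 (viperin, an antiviral enzyme) averaged 46.9 ± 6.29 CPM in TG and 37 ± 13.9 CPM in WT (0.34, SE 0.25, adjusted p = 0.408), and passed without WT 3, which had the highest value of all 8 libraries (0.58, adjusted p = 0.0375). Usp18, which removes ISG15 from proteins and damps the interferon receptor, measured 0.23 (SE 0.15, adjusted p = 0.327). Ifi35 measured 0.06 (SE 0.10, adjusted p = 0.763), and without TG 2 its direction turned (−0.0121). Mx1, a gene of the Mx GTPase family, was near 1 CPM in both groups (1.22 ± 0.543 CPM in TG and 1.12 ± 0.962 CPM in WT) and measured 0.12 (SE 0.55, adjusted p = 0.912). Its direction turned without TG 3 (−0.129), WT 1 (−0.065), WT 2 (−0.00808) or WT 4 (−0.14).

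Of the 13 genes with an ISRE core in the printed kind of window, 9 were higher in TG (B2m, Bst2, Ddx58, Gbp2, Gbp3, Ifit1, Ifit3, Ifitm3 and Isg15) and 4 did not pass the test (Gbp7, Ifih1, Rsad2 and Stat2). Of the 17 genes with a window and without the core, 7 were higher. Of the 8 genes with a GAS core, 4 were higher, and of the 22 without it, 12. These counts are descriptions, since windows of 300 bases leave out most of the regulatory sequence of a gene and variants of the letters were not counted.

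**Figure D4:**
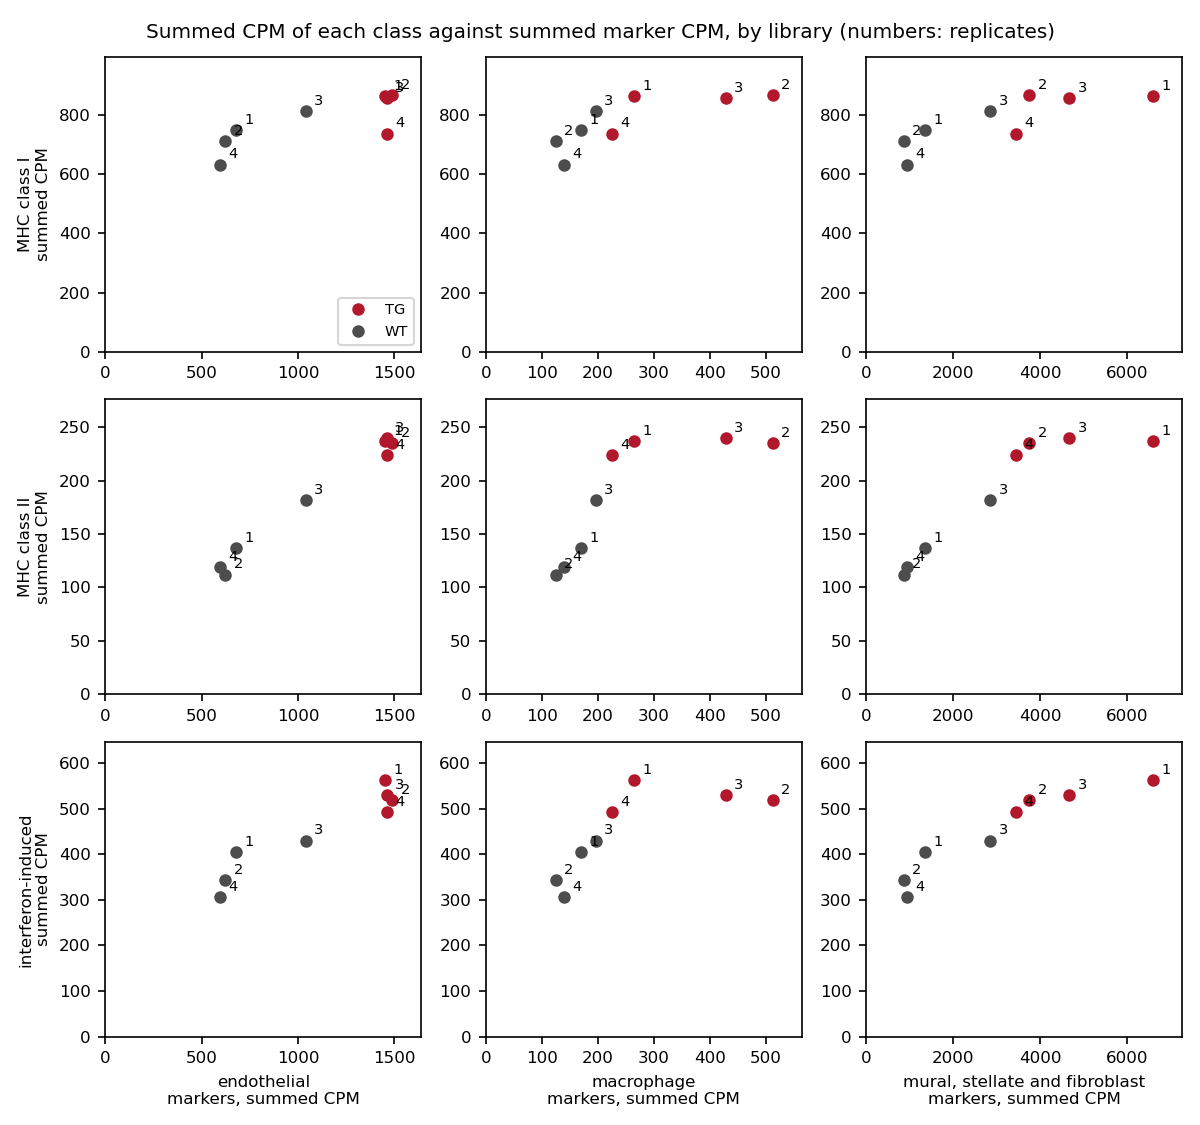
Summed CPM of the class I, class II and interferon-induced genes (vertical axes) against summed CPM of endothelial, macrophage, and mural, stellate and fibroblast markers (horizontal axes), with a point for each of 4 TG and 4 WT libraries and its replicate number beside it. Class II sums are 224 to 240 CPM in TG and 112 to 182 CPM in WT, and WT 3 is the highest WT library on every axis.

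Other genes of the same pathways come from lists chosen by known function, and their shares are read against the 12.1% of all genes called higher. Of 17 further class I genes 2 were higher (11.8%, near the share of all genes) and 0 lower, with a median log2 fold change of 0.16. These were the non-classical heavy chains H2-T23 (0.75, SE 0.13, adjusted p = 0.000808) and H2-T22 (0.36, SE 0.11, adjusted p = 0.0297), whose counts share the limit named for heavy chains. Of 10 further class II genes tested 3 were higher (30.0%) and 0 lower, with a median of 0.48. Ctss (0.62, SE 0.12, adjusted p = 0.00145) and Lgmn (0.56, SE 0.12, adjusted p = 0.00364) encode proteases that process the invariant chain and antigen. H2-DMb1 (1.38, SE 0.34, adjusted p = 0.00938) encodes part of the molecule that loads peptide onto class II.

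Upstream of the response, 3 of 12 tested genes of interferons, their receptors and their signalling were higher (25.0%, against 12.1% of all genes) and 0 lower, with a median of 0.28. Ifngr1 (0.67, SE 0.13, adjusted p = 0.00219) and Ifnar2 (0.47, SE 0.15, adjusted p = 0.0377) encode receptor chains for interferon-gamma and type I interferon, and Socs3 (0.61, SE 0.16, adjusted p = 0.016) a feedback inhibitor of cytokine receptors. The interferon transcripts themselves were at the limit of detection. Ifng had 0, 7, 4 and 2 counts in TG and 0, 0, 0 and 3 counts in WT, and Ifnb1 had 0 counts in TG and 1 count in WT, so neither was tested. A count of 0 allows up to 3 counts, or 0.133 to 0.182 CPM depending on the library, and covers counting error only. Of 15 sensors and adaptors of nucleic acids 3 were higher (20%, against 12.1%) and 0 lower, with a median of 0.25. These lists are short, so 1 gene moves such a share by several points. The called sensors and adaptors were Tmem173, which encodes STING (1.05, SE 0.28, adjusted p = 0.016), Irf5 (1.12, SE 0.31, adjusted p = 0.0187) and Dhx58, which encodes the RIG-I relative LGP2 (0.93, SE 0.26, adjusted p = 0.0211). Of 53 further interferon-induced genes 28 were higher (52.8%, against 12.1%) and 0 lower, with a median of 0.68, led by the growth-regulating Schlafen genes Slfn5 (1.21, SE 0.10, adjusted p = 1.27e-06) and Slfn2 (1.61, SE 0.21, adjusted p = 8.75e-05), and by Epsti1 (1.37, SE 0.18, adjusted p = 0.000101) and Ifi203 (1.30, SE 0.17, adjusted p = 0.000114).

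At an unadjusted p under 0.05 these lists held 5 genes with a negative fold change, Erap1, Canx and Psme2 of class I, the kinase Ikbke of the sensors and Cmpk2 of the interferon-induced genes, of which DESeq2 called Canx, Ikbke and Cmpk2 lower (named after their values were seen). Several of the calls above were lost when 1 library was left out. Those of H2-T22 (0.305 to 0.364, adjusted p between 0.05 and 0.117) and Ifnar2 (0.38 to 0.472, adjusted p between 0.0583 and 0.127) were lost without any 1 of TG 1, TG 2, TG 3, WT 3 or WT 4, and that of H2-T22 also without WT 2, that of Ifnar2 also without WT 1. Socs3 was lost without TG 2 or WT 1 (0.485 to 0.513). Tmem173 was lost without TG 1, TG 3, WT 1 or WT 2 (0.92 to 0.986), Irf5 without TG 3, WT 1 or WT 2 (0.941 to 1.06) and Dhx58 without TG 1, TG 3, WT 2 or WT 4 (0.812 to 0.884). The sensors called higher numbered 0 without TG 3 or without WT 2, 1 without TG 1 or without WT 1 and 5 without WT 3. The further interferon-induced genes called higher numbered 18 without TG 3 and 16 without WT 2.

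The classes were then set against the other cell types by adding the mean log2 CPM of a marker list to the fit. With endothelial and mural, stellate and fibroblast markers as a covariate, edgeR called 0 of the 37 genes, against 0.6% of all genes called higher, and 3 of the 37, all with a negative fold change, had an unadjusted p under 0.05 (Oasl1, Mx1 and Rsad2). With macrophage markers as the covariate it again called 0, against 0.395% of all genes called higher, and 3 had an unadjusted p under 0.05 (Gbp2 with a positive fold change, Mx1 and Rsad2 with a negative one). No other tool was run with a covariate. The median log2 fold change of the 37 genes was −0.07 with the first covariate and −0.06 with the second, and the standard error of the median gene grew 2.02-fold and 2.14-fold. Both covariates separate the groups without overlap in their summed levels, so these fits leave little difference to estimate, and an effect of the genotype and one of cell composition cannot be told apart in them.

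Values differed between genes in these fits. Gbp2 measured 0.814 (SE 0.39) with the vascular and stromal covariate and 1.29 (SE 0.42) with the macrophage covariate, and Gbp3 measured 0.519 (SE 0.30) and 0.583 (SE 0.30). B2m was at 0.216 (SE 0.32) and 0.154 (SE 0.31), and Ifitm3 at 0.289 (SE 0.33) and 0.481 (SE 0.39). In class II, H2-Aa was at 0.252 (SE 0.21) and 0.339 (SE 0.22), while Cd74 turned to −0.251 (SE 0.28) and −0.46 (SE 0.24). Rsad2 turned to −0.849 (SE 0.29) and −0.932 (SE 0.27). All adjusted p-values of the 37 genes were 0.168 or more in both fits.

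**Figure D5:**
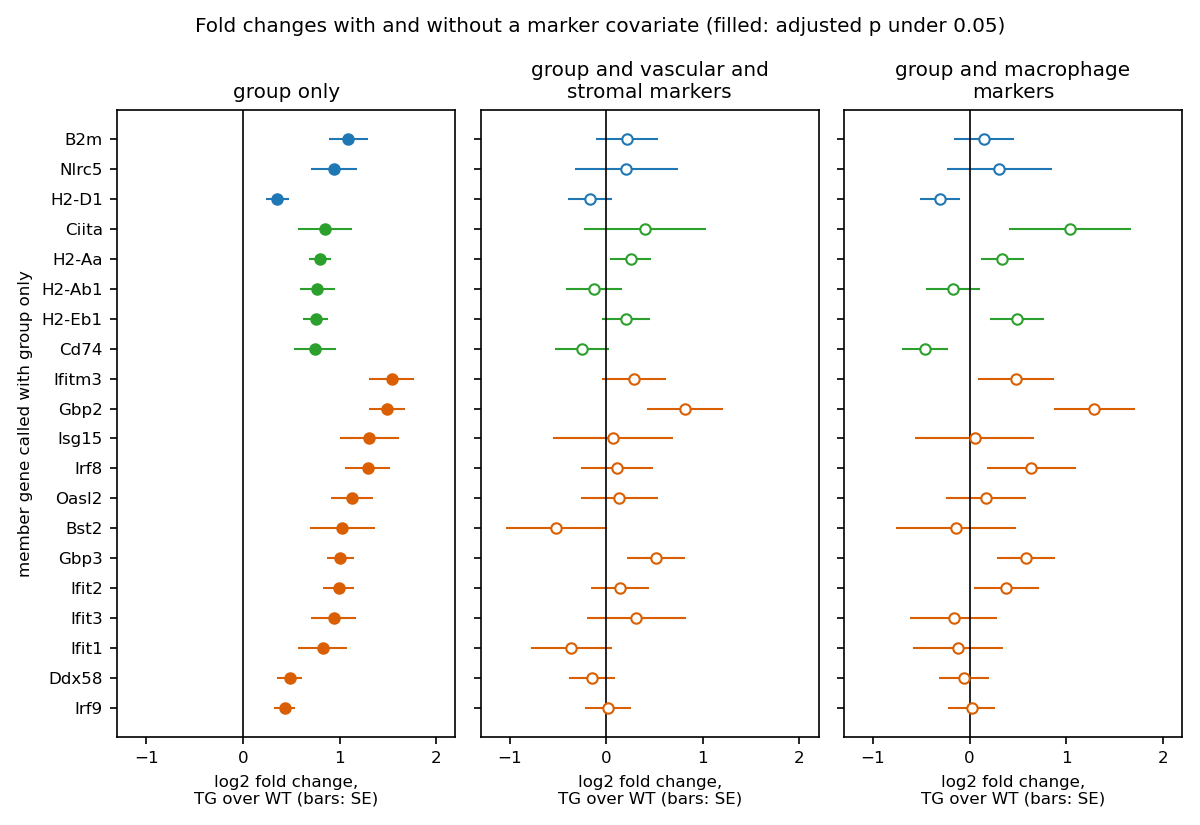
Log2 fold change, TG over WT, of the 20 genes called in the fit with group only (left), with the vascular and stromal covariate (middle) and with the macrophage covariate (right), with bars of 1 SE and filled points at an adjusted p under 0.05. With either covariate 0 genes are filled, and the highest value in those fits is that of Gbp2, 0.814 and 1.29.

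TG 2 and TG 3, the libraries with the highest summed macrophage markers, were then left out. In that fit 9 of the 37 genes were called higher, against 5.62% of all genes tested, and 0 lower. All 9 were among the 20. They were B2m (0.98, adjusted p = 0.0432), H2-Aa (0.769, adjusted p = 0.00407), H2-Eb1 (0.83, adjusted p = 0.00387), Irf8 (1.42), Ifit2 (1.02), Oasl2 (1.01), Gbp2 (1.64), Gbp3 (0.995) and Ifitm3 (1.51). The same 9 genes were called in all 15 settings without a covariate. Those 15 settings include the fit without TG 2 and TG 3, so a gene called in all of them had to be among the 9.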

How the data were processed

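Islet RNA of 4 TG and 4 WT samples was sequenced, and the deposited values are raw read counts per Ensembl gene, 1 table per sample. The submitters' processing notes name STAR 2.7.10a, HTSeq 0.11.3 and the build mm39. Strand setting and read length are not given there. Reads outside genes (25.34% to 31.52%) and ambiguous reads (3.744% to 4.364%) were left out. A GENCODE M21 annotation of build GRCm38 gave symbols to 52081 of 55414 identifiers, of which 68 shared a symbol with a more abundant one and kept their identifier, and gave exon lengths. RefSeq promoter windows are on GRCm38.p6. Counts were filtered with filterByExpr (minimum count 10), scaled by TMM and tested in edgeR 4.0.16 under R 4.3.3 (quasi-likelihood, robust, two-sided, group as the only term), with Benjamini-Hochberg adjustment over 20509 genes. The fit was tested on simulated counts. CPM use effective library sizes, and SD is between samples. The SE was derived as the absolute log2 fold change over the square root of the F statistic of the quasi-likelihood test. Libraries within a group differed beyond sampling noise (chi-square per gene 16.9 to 56.7). The smallest library makes 3 counts, the limit a count of 0 allows, equal to 0.182 CPM, and the largest to 0.133 CPM, and these limits cover counting error only. 

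All 37 genes are reported, with values per library for called genes and for the highest of each class, and of each pathway list up to 4 called genes with the lowest adjusted p. The genes, lists, tests and this rule were chosen with earlier results of these data known. The marker lists are macrophage, peritoneal-type macrophage, dendritic, T and NK, B, endothelial, mural with stellate and fibroblast, beta, acinar and duct. Alternatives were DESeq2 1.42.0, other scalings and filters, the replicate number as a block, marker covariates, and each library left out. Leaving out TG 2 and TG 3, and running these settings on the pathway lists, were added after the data had been seen.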

Additional observations from a re-analysis of the deposited data

Results flagged for a closer look

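In groups of 4 libraries, a value was singled out where its gap to the nearest other library, divided by the range of the group, exceeded the critical value of Dixon's test at 95%. Of 80 groups tested, 9 had such a value, and chance gives about 1 in 20 groups.

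WT 3 was far above the other WT libraries for 3 genes. Tapbp stood at 101.0 CPM there, against 91.7 to 92.5 CPM in the others, Cd74 at 59.1 CPM against 32 to 36.1 CPM, and Oasl1 at 3.0 CPM against 0.913 to 1.24 CPM. WT 3 also had the highest summed endothelial markers of the WT libraries (1040 CPM), and the part of those cells in these values was not tested.

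TG 4 was far below the other TG libraries for 3 genes and 1 sum. Irf7 stood at 5.68 CPM against 9.65 to 9.93 CPM in the other TG libraries, Oasl2 at 10.7 CPM against 12.9 to 13.3 CPM, and Rsad2 at 37.6 CPM against 49.1 to 50.7 CPM. The summed class I level of TG 4 was 737.0 CPM against 856.0 to 866.0 CPM. Stat2 in TG 3 was high (25.3 CPM against 19.8 to 20.6 CPM in the other TG libraries), and Psmb9 in WT 4 was low (3.83 CPM against 6.89 to 7.48 CPM in the other WT libraries).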

How the results depend on the processing

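Median-of-ratios scaling and DESeq2 changed no direction or call of the 37 genes. Upper-quartile scaling ended the calls of H2-D1 and Ciita, and no filter, which moved the median of all genes to 0.113, that of Ciita. Over the whole table DESeq2 called 4857 genes, against 4129 in edgeR. Same-numbered libraries correlated at −0.0304, 0.0812, 0.0193 and 0.00794, and not every library correlated best with its own number, so the samples share only a number. With the replicate block 4673 genes were called, and 36 of the 37 genes kept direction and call while Tap2 turned to 0.00788. With 1 CPM in 4 libraries as the filter, Tap2 was at 0.0129. With 4 libraries a group, depth and spread limit genes near 1 CPM, such as Mx1 and Oasl1.

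Class I calls numbered 0 with either covariate, 1 without TG 2 and TG 3, and 1 to 5 when each library was left out. Class II calls numbered 0 with either covariate, 2 without TG 2 and TG 3, and 3 to 5 when each library was left out. Interferon-induced calls numbered 0 with either covariate, 6 without TG 2 and TG 3, and 8 to 13 when each library was left out. The causes of these differences were not tested. Directions that turned with the vascular and stromal covariate were H2-D1 (−0.167), Tap1 (−0.481), Psmb8 (−0.201), Psmb10 (−0.526), H2-Ab1 (−0.122), Cd74 (−0.251), Ifit1 (−0.363), Ddx58 (−0.147), Mx1 (−2.32), Gbp7 (−0.0932), Rsad2 (−0.849) and Bst2 (−0.517). With the macrophage covariate they were H2-D1 (−0.308), Tap1 (−0.49), Psmb10 (−0.0109), H2-Ab1 (−0.172), Cd74 (−0.46), Ifit1 (−0.12), Ifit3 (−0.163), Ddx58 (−0.0561), Mx1 (−2.5), Usp18 (−0.0698), Rsad2 (−0.932), Bst2 (−0.139) and Ifi35 (−0.149). Without TG 2 and TG 3 they were Mx1 (−0.186) and Ifi35 (−0.0641). Leaving out each library gave −0.0684 to 0.00452 for H2-K1, −0.0935 to 0.072 for Tap2, −0.308 to 0.382 for Oasl1, −0.14 to 0.908 for Mx1 and −0.0121 to 0.0766 for Ifi35.

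In the pathway lists, 0 genes were called higher with either covariate. Without TG 2 and TG 3, 1 further class I gene, 0 class II genes, 1 interferon signalling gene, 0 sensors and 14 further interferon-induced genes were called higher. The further class I genes called higher numbered 1 with upper-quartile scaling and with no filter. Leaving out each library gave 1 to 2 of these higher and 0 to 1 lower, 1 to 3 interferon signalling genes higher, 0 to 5 sensors higher and 0 to 1 lower, and 16 to 29 further interferon-induced genes higher and 0 to 1 lower. With upper-quartile scaling and with DESeq2, 1 further class I gene and 1 sensor were called lower. With no filter, the replicate block, either covariate and DESeq2, 1 further interferon-induced gene was called lower.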
